A study of Homo sapiens with 9 samples.

Results

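RNA sequencing of 9 libraries measured the transcripts of LNCaP, a human line grown from a prostate cancer metastasis. Total RNA came from cells in plates that were starved in medium free of serum and calcium, and NRG1-treated cells received recombinant NRG1 at 15 ng/mL. NRG1 is a secreted ligand of the receptor HER3, which signals with HER2. The 3 groups were 0 h, 12 h and 24 h, the 0 h cells being those at the start of treatment, with 3 libraries each. The labels call these biological replicates and describe wells plated in triplicate, so p-values measure the spread between such samples of 1 cell line, which may be technical in part. Cells held in starvation medium without NRG1 for as long as 12 or 24 h are not analysed here, so an effect of NRG1 and an effect of the added time in that medium cannot be told apart. The 12 h and 24 h libraries were compared with the same 0 h libraries.

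The genes described are 42 androgen-responsive genes other than the kallikreins. They were chosen by name with earlier results of these data known, so their shares beside other genes are a description only. All 42 were in the deposited table of 37351 genes, and 41 reached 10 counts in at least 3 of the 9 libraries. These 41 were also among the 19250 genes with enough counts to be tested. STEAP4, a metalloreductase of the cell surface, was the exception, at 0.00575 CPM at 0 h, 0.0531 CPM at 12 h and 0.0601 CPM at 24 h, and was not tested. CPM are read counts relative to the size of the library, scaled so that libraries of different composition can be compared.

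Androgens such as dihydrotestosterone act on the luminal cells of the prostate, where they drive genes for secreted enzymes, for the making of lipids and glycans, and for the traffic of proteins to the cell surface, and LNCaP cells respond to androgen. Many of these genes also respond to other steroid hormones and to other signals. Markers of luminal prostate cells were present, with 8 genes of the list summing to 5100 to 5440 CPM in the 9 libraries. Defining markers of other cell types were at or near 0: KRT5, KRT14, KRT15 and TP63 of basal cells summed to at most 0.331 CPM, and PTPRC, CD3E, CD68 and LYZ of immune cells to at most 0.454 CPM. Of the endothelial markers, PECAM1 had at most 0.0169 CPM on average at any time, while VWF fell, with 13.1 ± 0.475 CPM before NRG1 and 7.39 ± 0.524 CPM after 24 h of it (SD, n = 3, log2 change -0.83, adjusted p = 3.07e-10). The 5 fibroblast markers summed to 23.9 to 28.2 CPM, nearly all of it COL1A1, and COL3A1 rose from 0.567 ± 0.252 CPM to 1.43 ± 0.259 CPM (log2 change 1.32, adjusted p = 0.00032). The 4 neuroendocrine markers summed to 2.63 to 3.82 CPM, nearly all of it SYP. The part of VWF and COL3A1 in the results that follow was not tested. Total counts were 47016302 to 60985825 per library, and the 0 h libraries were the deepest.

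More members fell than rose at both times. At 12 h against 0 h, 17 of 41 members (41.5%) were lower and 8 (19.5%) higher at an adjusted p of at most 0.05, beside 8.16% lower and 10.6% higher among all tested genes. At 24 h against 0 h, 20 members (48.8%) were lower and 7 (17.1%) higher, beside 9.48% lower and 11.6% higher among all tested genes. Most of the changes were small, and in RNA from whole wells fewer cells that use a gene and less of its RNA per cell cannot be told apart. With a fold change of at least 1.5 as well, PTGER4 and UAP1 were higher and C1orf116 and ADAMTS1 lower at 12 h, 4 members in all, where 2.37% of tested genes passed both limits. At 24 h PTGER4 was higher, and C1orf116, ADAMTS1, GNMT and PLPP1 were lower, 5 members where 3.31% of tested genes passed both limits. Between 12 and 24 h, 12 members (29.3%) fell further or turned down and 1 (2.44%), ABCC4, rose, beside 3.05% and 3.03% of tested genes. No member moved by 1.5-fold between 12 and 24 h, as did 0.452% of tested genes. The count of 12 was 7 without 12 h replicate 2 and 7 without 24 h replicate 2, and the single rise was lost without 12 h replicate 1, 2 or 3 or 24 h replicate 2. A test of any difference among the 3 times called 28 members (68.3%) and 25.1% of all tested genes.

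**Figure D1:**
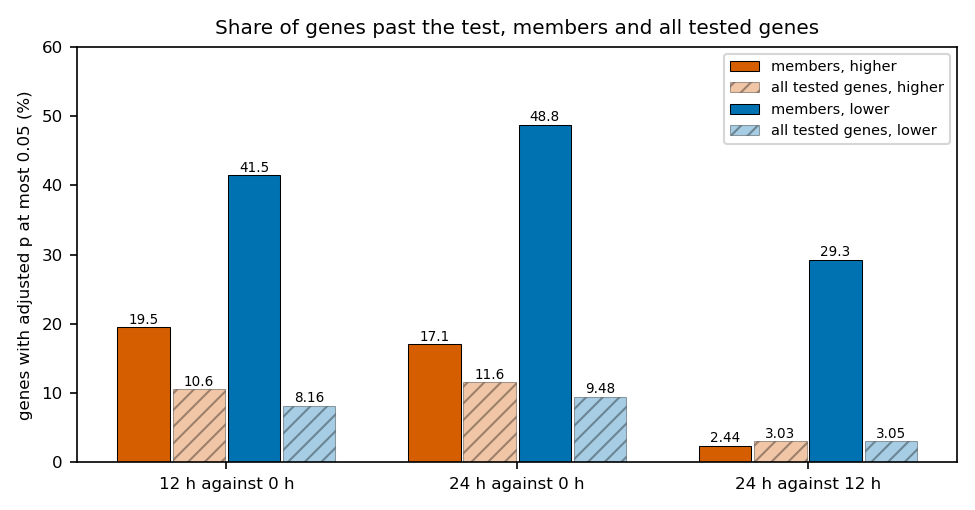
Share of genes past the test, in percent of genes tested (y axis), for the 3 comparisons of times (x axis). Solid bars are the 41 tested members and hatched bars all 19250 tested genes; the blue solid bars for lower members (41.5%, 48.8% and 29.3%) stand above the hatched ones (8.16%, 9.48% and 3.05%).

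The members were expressed at a higher level than most genes, so they are also given beside genes of like level. Their median was 53.9 CPM, against 9.93 CPM over all tested genes. Among the 9608 tested genes of at least 10 CPM, 11.8% were lower and 18.1% higher at 12 h, and 15 lower and 6 higher were counted among the 33 members at that level. At 24 h the shares were 13.6% lower and 18.9% higher, with 18 and 6 of the 33 members. Between 12 and 24 h they were 5.31% lower and 4.88% higher, with 10 and 1 members. At this level the share of members that were higher thus lay near that of other genes of that level, and the share that were lower lay above it.

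The median log2 change of the 41 members was -0.09 at 12 h and -0.15 at 24 h, and -0.08 from 12 h to 24 h, while the median of all tested genes was within 0.01 of 0 in each comparison. Of the 41, 26, 30 and 29 had a negative change in the 3 comparisons, whether or not they passed the test. All 3 libraries of one time lay below all 3 of the other for 19 members at 12 h and 24 members at 24 h against 0 h, and for 17 members at 24 h against 12 h, where the shares over all tested genes were 15.3%, 16.2% and 12.3%. They lay above for 11, 9 and 4 members, with 17.5%, 17.3% and 12.1% over all tested genes.

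**Figure D2:**
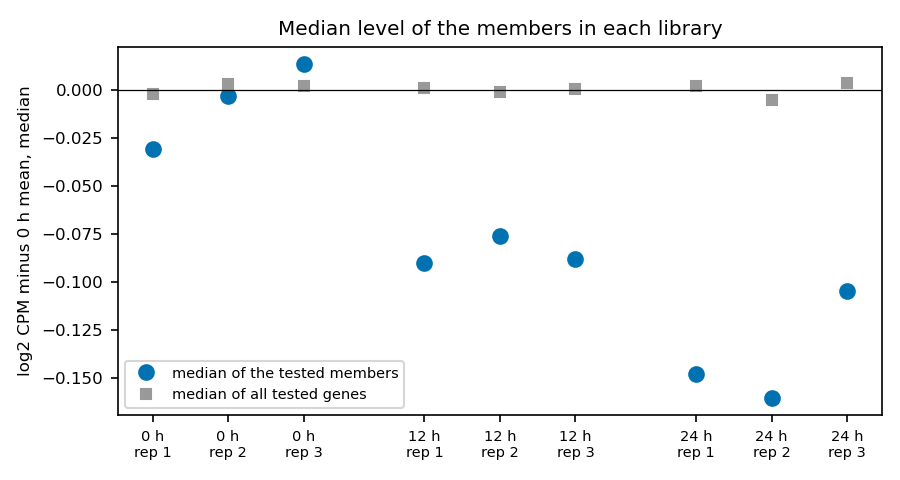
Median deviation from the 0 h mean on the log2 CPM scale (y axis) in each of the 9 libraries (x axis), for the 41 tested members (circles) and all tested genes (squares). The members' median lies between -0.09 and -0.08 in the 12 h libraries and between -0.16 and -0.10 in the 24 h libraries, while that of all genes stays within 0.01 of 0.

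The sequences just upstream of 4 members show what the DNA around the start of transcription holds. They are the gene that fell most (C1orf116), the one that rose most (PTGER4), and a pair that rose and hold the androgen response half-site (FKBP5 and IQGAP2). Each runs from 250 bases before the start to 30 bases after it, 5′ to 3′ on the strand of the gene, from RefSeq (GRCh38.p14). Capitals mark the AP-1 letters TGANTCA in C1orf116, the half-site AGAACA in FKBP5, and its reverse complement TGTTCT and the ETS core GGAAGT in IQGAP2. PTGER4 holds none of the motifs searched.
C1orf116, chr1:207032727-207033006, minus strand: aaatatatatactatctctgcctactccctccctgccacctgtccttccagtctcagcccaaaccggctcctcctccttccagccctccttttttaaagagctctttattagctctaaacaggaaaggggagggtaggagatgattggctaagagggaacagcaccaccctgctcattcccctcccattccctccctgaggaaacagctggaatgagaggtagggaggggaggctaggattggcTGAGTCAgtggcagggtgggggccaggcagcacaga
PTGER4, chr5:40679665-40679944, plus strand: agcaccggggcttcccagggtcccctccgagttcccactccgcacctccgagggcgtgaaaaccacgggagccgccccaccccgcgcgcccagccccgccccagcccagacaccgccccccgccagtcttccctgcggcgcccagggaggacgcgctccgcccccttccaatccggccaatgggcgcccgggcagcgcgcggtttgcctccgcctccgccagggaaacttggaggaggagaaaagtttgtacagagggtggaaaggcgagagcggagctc
FKBP5, chr6:35728554-35728833, minus strand: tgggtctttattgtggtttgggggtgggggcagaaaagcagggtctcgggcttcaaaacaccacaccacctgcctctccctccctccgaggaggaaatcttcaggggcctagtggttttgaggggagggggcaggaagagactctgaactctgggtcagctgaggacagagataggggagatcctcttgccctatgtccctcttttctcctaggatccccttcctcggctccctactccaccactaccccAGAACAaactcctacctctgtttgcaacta
IQGAP2, chr5:76547159-76547438, plus strand: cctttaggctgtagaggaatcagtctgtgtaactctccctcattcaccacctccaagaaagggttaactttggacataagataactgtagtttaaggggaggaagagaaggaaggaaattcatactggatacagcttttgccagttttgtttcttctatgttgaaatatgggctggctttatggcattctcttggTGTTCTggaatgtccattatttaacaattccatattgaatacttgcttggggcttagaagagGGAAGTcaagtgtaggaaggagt

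The AP-1 letters in C1orf116 begin 6 bases before the start and run across it. The half-site in FKBP5 begins at the first transcribed base of 1 of its 2 listed starts, and that in IQGAP2 lies 55 bases before 1 of its 3 listed starts. RefSeq windows of 300 bases (250 before to 50 after the start) were given for 31 of the 42 members, 53 windows in all. On either strand, the half-site was in 6 of the 53 (11.3%), at FKBP5, IQGAP2, LIFR, PMEPA1 and TRPM8, and in 14.8% of the 35116 windows of all genes. Of these 5 genes, FKBP5 and IQGAP2 rose at 12 h, LIFR and PMEPA1 fell at 12 h, and TRPM8 passed neither comparison with 0 h. The full androgen response element, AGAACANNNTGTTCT, was in none of the 53 and in 1 of all windows (0.00285%). The forkhead motif TGTTTAC was in 1 member window (1.89%), at LIFR, and in 3.42% of all. The ETS core was in 9 (17%) and in 22.8% of all, and the AP-1 letters in 1 (1.89%) and in 7.71% of all. The full element holds the half-site at both ends, so a window with it would count under both. No motif was more frequent at the members than at all genes, and these windows do not reach distant enhancers.

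Of the 7 secreted or cell surface members, 6 were tested, and 3 fell and 1 rose at 12 h, and 4 fell and 1 rose at 24 h. For this and the role groups below, all tested genes were 8.16% lower and 10.6% higher at 12 h. At 24 h those shares were 9.48% and 11.6%. TMPRSS2 (chr21:41464300-41531116, GRCh38), the membrane serine protease whose gene is fused to ERG in many prostate cancers, had 47.2, 49.1 and 48.3 CPM at 0 h, 40.3, 41.9 and 39.6 CPM at 12 h and 31.9, 31.96 and 33.3 CPM at 24 h. The 3 times did not overlap, and each step was a fall (log2 change -0.25, SE 0.043, adjusted p = 3.97e-05 at 12 h, log2 change -0.57, SE 0.043, adjusted p = 8.84e-13 at 24 h, log2 change -0.32, SE 0.044, adjusted p = 3.67e-06 between them). MX1, a gene on the other strand that shares exon bases with TMPRSS2, had 9.35% of its counts and did not pass the test at either time. ADAMTS1 (chr21:26835755-26845409), a secreted protease that cuts proteoglycans, had 232, 208 and 212 CPM at 0 h, 140.2, 141 and 152 CPM at 12 h and 123, 121 and 128 CPM at 24 h. It fell at 12 h by 0.59 and at 24 h by 0.81 on the log2 scale (adjusted p = 7.21e-13 and 1.81e-16), and it fell further between 12 and 24 h (log2 change -0.22, adjusted p = 0.000572). Its highest 12 h library, at 152 CPM, was below every 0 h library.

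ACP3, prostatic acid phosphatase and a classical secreted product of the gland, had 39.7, 40.3 and 39.6 CPM at 0 h, 31.9, 31.4 and 34.97 CPM at 12 h and 30.6, 28.7 and 26.9 CPM at 24 h. It fell at both times (log2 change -0.28, adjusted p = 5.26e-05 at 12 h and log2 change -0.47, adjusted p = 3.49e-09 at 24 h). The further fall between 12 and 24 h (log2 change -0.19, adjusted p = 0.0207) was lost without 12 h replicate 3 or 24 h replicate 2 or 3 (log2 change -0.19 to -0.14, adjusted p = 0.0576 to 0.17). ABCC4, an exporter of organic anions and cyclic nucleotides, moved the other way, with 146, 139 and 144 CPM at 0 h, 188, 188 and 188 CPM at 12 h and 202, 208 and 204 CPM at 24 h. It rose by 0.39 at 12 h and 0.51 at 24 h on the log2 scale (SE 0.032 each, adjusted p = 8.67e-12 and 3.68e-15), and its 3 times did not overlap. Its step between 12 and 24 h (log2 change 0.12, adjusted p = 0.0154) was lost without 12 h replicate 1, 2 or 3 or 24 h replicate 2 (log2 change 0.11 to 0.12, adjusted p = 0.056 to 0.0897).

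The other surface and secreted members changed late or passed only 1 comparison. AZGP1, zinc-alpha-2-glycoprotein, had 56.7 ± 2.03 CPM at 0 h, 59.1 ± 3.93 CPM at 12 h and 50.7 ± 2.81 CPM at 24 h (SD, n = 3). It fell between 12 and 24 h (log2 change -0.22, adjusted p = 0.0023), and its fall at 24 h against 0 h (log2 change -0.16, adjusted p = 0.0111) was lost without 0 h replicate 2 or 3 or 24 h replicate 1 or 2 (log2 change -0.15 to -0.13, adjusted p = 0.0548 to 0.0786). TRPM8, a cation channel opened by cold and menthol, had 8.74, 8.66 and 8.48 CPM at 0 h, 9.30, 10.2 and 9.52 CPM at 12 h and 6.88, 8.09 and 8.01 CPM at 24 h. Neither time differed from 0 h by the test (adjusted p = 0.174 at 12 h and 0.167 at 24 h), but the 12 h libraries were the highest and the 24 h libraries the lowest. The fall between them (log2 change -0.33, adjusted p = 0.0115) was lost without 12 h replicate 2 or 24 h replicate 1 (log2 change -0.29 to -0.27, adjusted p = 0.0905 to 0.0912). The near-identical pseudogene AZGP1P1 had 5.33% of the counts of AZGP1, so reads could be split between them.

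Among the 9 members for receptors, kinases and signalling adaptors, 4 rose and 3 fell at 12 h and 2 rose and 2 fell at 24 h. PTGER4 (chr5:40679915-40693735), the EP4 receptor for prostaglandin E2, rose most of all members, from a low level. It had 1.26, 1.22 and 1.64 CPM at 0 h, 3.21, 3.71 and 3.30 CPM at 12 h and 3.24, 3.33 and 3.48 CPM at 24 h, so that every treated library exceeded every 0 h library. The change was 2.48-fold at 12 h (log2 change 1.31, SE 0.16, adjusted p = 6.23e-08) and 2.43-fold at 24 h (log2 change 1.28, SE 0.16, adjusted p = 6.36e-08), and 12 and 24 h did not differ by the test (adjusted p = 0.957). IQGAP2, a scaffold protein of the cytoskeleton, had 23.99, 19.9 and 21.3 CPM at 0 h, 27.6, 27.4 and 28.2 CPM at 12 h and 29.6, 31.4 and 31.4 CPM at 24 h. Its rise was 0.35 at 12 h and 0.50 at 24 h on the log2 scale (adjusted p = 1.56e-05 and 1.07e-08), with no overlap between the 3 times. The step from 12 to 24 h did not pass the test (log2 change 0.15, adjusted p = 0.107), except with only the 6 libraries compared (adjusted p = 0.0471). The window of PTGER4 printed above holds none of the motifs, and that of IQGAP2, at 1 of its 3 listed starts, holds a half-site. That IQGAP2 window was printed because it holds the half-site, and a part of the half-site in the rise was not tested.

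FKBP5 encodes a co-chaperone that binds HSP90 in steroid receptor complexes and is widely used as a readout of androgen and glucocorticoid action. It had 52.4, 49.4 and 47.9 CPM at 0 h, 57.4, 59.8 and 58.5 CPM at 12 h and 53.2, 52.6 and 54.2 CPM at 24 h. FKBP5 rose at 12 h (log2 change 0.23, SE 0.041, adjusted p = 5.71e-05), and all 12 h libraries were above all 0 h libraries. At 24 h its change did not pass the test (log2 change 0.10, SE 0.041, adjusted p = 0.096), except without 0 h replicate 1 (log2 change 0.14, adjusted p = 0.0214). The fall between 12 and 24 h (log2 change -0.13, adjusted p = 0.0422) was lost without 12 h replicate 1, 2 or 3 or 24 h replicate 1, 2 or 3 (log2 change -0.15 to -0.12, adjusted p = 0.0692 to 0.198). CAMKK2, a kinase that activates AMPK in response to calcium, had 129, 129 and 128 CPM at 0 h, 109.6, 109 and 106 CPM at 12 h and 108, 111 and 105 CPM at 24 h. CAMKK2 fell to about the same level at both times (log2 change -0.25, adjusted p = 5.89e-07 at 12 h and log2 change -0.26, adjusted p = 2.91e-07 at 24 h), with all treated libraries below all 0 h libraries.

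The remaining signalling members had smaller or less certain changes. BMPR1B, a type 1 receptor for bone morphogenetic proteins, rose, with a mean of 4.23 ± 0.219 CPM at 0 h against 5.26 ± 0.174 CPM at 12 h (log2 change 0.32, adjusted p = 0.0331), a call lost without 0 h replicate 1 or 2 or 12 h replicate 1, 2 or 3 (log2 change 0.28 to 0.34, adjusted p = 0.052 to 0.117). LIFR, the receptor for leukemia inhibitory factor, fell at 12 h (log2 change -0.20, adjusted p = 0.0176), but its 0 h and 12 h libraries overlapped and the call was lost without 0 h replicate 1 or 12 h replicate 1 or 2 (log2 change -0.19 to -0.13, adjusted p = 0.0871 to 0.0986). At 24 h LIFR did not pass the test (log2 change -0.15, adjusted p = 0.085). LIFR passed at 24 h in 5 of 18 alternatives, including without 0 h replicate 3 or 12 h replicate 3 (log2 change -0.19 to -0.14, adjusted p = 0.0259 to 0.0452). PMEPA1, a membrane protein that dampens TGF-beta signalling, fell by 0.12 at 12 h and 0.13 at 24 h on the log2 scale (adjusted p = 0.0405 and 0.0363). The 12 h call of PMEPA1 was lost without 0 h replicate 1 or 3, 12 h replicate 1, 2 or 3 or 24 h replicate 2 (log2 change -0.14 to -0.09, adjusted p = 0.0516 to 0.231), and the 24 h call without 0 h replicate 1 or 3, 12 h replicate 1 or 24 h replicate 1 or 2 (log2 change -0.12 to -0.11, adjusted p = 0.0532 to 0.159). NKILA, on the other strand of the PMEPA1 locus, had 12.9% of its counts and shares exon bases with it.

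AKAP12, which anchors protein kinase A, had 38.3 ± 1.06 CPM at 0 h, 48.5 ± 5.07 CPM at 12 h and 39.7 ± 6.61 CPM at 24 h (SD, n = 3). Its 12 h libraries were all above its 0 h libraries, but the replicates at 12 and 24 h were spread and no comparison passed the test (adjusted p = 0.15, 0.861 and 0.324). Replicate 2 was the lowest at 0 h, at 37.1 CPM, at 12 h, at 42.6 CPM, and at 24 h, at 32.1 CPM. AKAP12 passed at 12 h without 24 h replicate 2 (log2 change 0.34, adjusted p = 4.02e-05) and at 24 h without 24 h replicate 2 (log2 change 0.19, adjusted p = 0.0379). HOMER2, a scaffold of postsynaptic and calcium signalling proteins, passed no comparison (log2 change -0.05 and -0.09).

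The 6 members that act in transcription had no rise at either time, with 4 falls at 12 h and 5 at 24 h. With 10.6% of all tested genes higher at 12 h and 11.6% at 24 h, 6 members are too few to show a lack of rises. CREB3L4, a transcription factor held in the membrane of the endoplasmic reticulum, had 70.9, 76.9 and 75.9 CPM at 0 h, 61.5, 64.4 and 66.8 CPM at 12 h and 56.2, 53.3 and 53.4 CPM at 24 h. It fell at each step (log2 change -0.22, adjusted p = 0.000135 at 12 h, log2 change -0.46, adjusted p = 5.93e-11 at 24 h and log2 change -0.24, adjusted p = 0.000156 between them), and the 3 times did not overlap. JTB on the other strand, which shares exon bases with CREB3L4, had 23.2% of its counts and a log2 change of 0.02 at 12 h and -0.01 at 24 h. ZBTB16, the zinc finger repressor PLZF, had 29.5, 30.8 and 30.1 CPM at 0 h, 24.5, 26.02 and 23.9 CPM at 12 h and 22.97, 23.4 and 22.1 CPM at 24 h. ZBTB16 fell by 0.28 at 12 h and 0.40 at 24 h on the log2 scale (adjusted p = 8.33e-05 and 1.64e-07). MAF, a basic leucine zipper factor of low level here, had 5.44, 5.69 and 6.15 CPM at 0 h, 3.39, 4.31 and 4.56 CPM at 12 h and 4.18, 4.28 and 4.61 CPM at 24 h. It fell at 12 h (log2 change -0.50, SE 0.11, adjusted p = 0.00153), and its fall at 24 h (log2 change -0.40, SE 0.11, adjusted p = 0.00877) was lost without 0 h replicate 3 (log2 change -0.35, adjusted p = 0.0607).

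ZBTB10, another zinc finger gene, fell by 0.17 at 12 h and 0.21 at 24 h on the log2 scale (adjusted p = 0.00166 and 0.000114). The elongation factor ELL2 had 23.5 ± 0.83 CPM at 0 h and 21.2 ± 0.596 CPM at 24 h (SD, n = 3), and its call at 24 h (log2 change -0.15, adjusted p = 0.0429) was lost without 0 h replicate 2 or 3, 12 h replicate 1, 2 or 3 or 24 h replicate 1 or 2 (log2 change -0.15 to -0.13, adjusted p = 0.0545 to 0.157). The ELL2 call was also lost with DESeq2, the study's test, with all genes that had a count and with only the 6 libraries compared (adjusted p = 0.051 to 0.0688). EAF2, the binding partner of ELL2, at 3.89 ± 0.617 CPM at 0 h, passed no comparison (log2 change -0.32, adjusted p = 0.091 at 12 h), except at 12 h without 0 h replicate 2 (log2 change -0.45, adjusted p = 0.0224).

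Of the 8 metabolic members, 3 fell and 1 rose at 12 h, and 5 fell and 1 rose at 24 h. UAP1 (chr1:162561506-162599842) makes UDP-N-acetylglucosamine, the donor for protein glycosylation, and rose by 1.61-fold at 12 h and 1.49-fold at 24 h. It had 264, 269.6 and 278 CPM at 0 h, 438, 441 and 429.7 CPM at 12 h and 408, 399 and 401 CPM at 24 h. The 12 h libraries were the highest, and the 0 h libraries lay below both other times (log2 change 0.69, SE 0.031, adjusted p = 5.49e-19 at 12 h and log2 change 0.58, SE 0.031, adjusted p = 5.71e-17 at 24 h). The decline between 12 and 24 h (log2 change -0.12, adjusted p = 0.0172) was lost without 12 h replicate 1 or 2 or 24 h replicate 2 or 3 (log2 change -0.11, adjusted p = 0.053 to 0.094). PLPP1 (chr5:55424854-55534969), a lipid phosphatase of the plasma membrane, had 80.6, 83.1 and 80.9 CPM at 0 h, 54.96, 55.3 and 53.2 CPM at 12 h and 51.6, 50 and 48.5 CPM at 24 h. PLPP1 fell at both times (log2 change -0.58, SE 0.038, adjusted p = 2.79e-14 at 12 h and log2 change -0.70, SE 0.038, adjusted p = 8.77e-17 at 24 h), and all treated libraries were below all 0 h libraries. Between 12 and 24 h its change was -0.12 (adjusted p = 0.0551), past the test without 0 h replicate 1 (log2 change -0.12, adjusted p = 0.0416). MTREX on the other strand shares 481 exon bases with PLPP1 and had 149% of its counts, with log2 changes of 0.07 at 12 h and 0.02 at 24 h that did not pass the test.

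GNMT, which uses S-adenosylmethionine to methylate glycine, was a low transcript with 5.69, 5.99 and 6.85 CPM at 0 h, 4.58, 5.03 and 5.18 CPM at 12 h and 3.03, 3.75 and 4.20 CPM at 24 h. Its fall at 24 h (log2 change -0.75, SE 0.12, adjusted p = 6.94e-06) was 1.68-fold. The smaller fall at 12 h (log2 change -0.33, adjusted p = 0.04) was lost without 0 h replicate 2 or 3 or 12 h replicate 1, 2 or 3 (log2 change -0.36 to -0.24, adjusted p = 0.0583 to 0.218), and that between 12 and 24 h (log2 change -0.42, adjusted p = 0.028) was lost without 12 h replicate 2 or 3 or 24 h replicate 1 or 2 (log2 change -0.44 to -0.31, adjusted p = 0.0602 to 0.179). PEX6 on the other strand shares 16 exon bases with GNMT and had 588% of its counts, and it too fell, with log2 changes of -0.18 at 12 h (adjusted p = 0.00646) and -0.23 at 24 h (adjusted p = 0.000515). MBOAT2, an acyltransferase that remodels phospholipids, had 61.6, 60.9 and 66.9 CPM at 0 h, 51.8, 49.8 and 51.96 CPM at 12 h and 48.6, 46.2 and 45.9 CPM at 24 h. Both times were below 0 h without overlap (log2 change -0.30, adjusted p = 1.18e-06 at 12 h and log2 change -0.43, adjusted p = 6.19e-10 at 24 h).

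ABHD2, a lipid hydrolase, changed late. It had 808, 747 and 802 CPM at 0 h, 737, 711 and 777 CPM at 12 h and 608, 602 and 588 CPM at 24 h. At 12 h the libraries overlapped those of 0 h (log2 change -0.08, adjusted p = 0.0888), and the difference passed the test without 0 h replicate 2 or 12 h replicate 3 (log2 change -0.12, adjusted p = 0.0185 to 0.0351). At 24 h every library was below every earlier one (log2 change -0.39, SE 0.034, adjusted p = 4.19e-11), and the fall between 12 and 24 h was 0.31 on the log2 scale (adjusted p = 8.01e-08). SORD, sorbitol dehydrogenase, followed the same order at smaller size, with 249 ± 5.20 CPM, 237 ± 7.10 CPM and 219 ± 1.84 CPM at 0, 12 and 24 h (SD, n = 3). Its fall at 24 h passed the test (log2 change -0.18, adjusted p = 3.66e-05), and the fall between 12 and 24 h (log2 change -0.11, adjusted p = 0.0289) was lost without 12 h replicate 1 or 2 or 24 h replicate 1, 2 or 3 (log2 change -0.12 to -0.09, adjusted p = 0.0653 to 0.156). The pseudogene SORD2P, with an identical stretch, had 2.51% of the counts of SORD. ACSL3, which activates long-chain fatty acids, and ALDH1A3, which makes retinoic acid, passed no comparison, with log2 changes of 0.05 and -0.03 for ACSL3 and -0.05 and -0.08 for ALDH1A3 at 12 and 24 h.

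The 9 members of protein traffic, chromosome structure and other roles held the member that fell most. C1orf116, also known as specifically androgen-regulated gene, lies at chr1:207018522-207032756 (GRCh38) and had 92.9, 98.5 and 99 CPM at 0 h, 60.02, 57.7 and 59.8 CPM at 12 h and 48.3, 47.4 and 46.02 CPM at 24 h. The times formed 3 separate levels, with a fall of 1.64-fold at 12 h (log2 change -0.71, SE 0.038, adjusted p = 1.01e-16) and 2.05-fold at 24 h (log2 change -1.04, SE 0.039, adjusted p = 1.45e-21). The step between 12 and 24 h also passed the test (log2 change -0.32, adjusted p = 4.53e-07). Its promoter is the one printed above with the AP-1 letters at the start. TPD52, which acts in vesicle traffic and is often raised in prostate cancer, had 202, 199 and 189 CPM at 0 h, 237, 235 and 239 CPM at 12 h and 249, 252 and 254 CPM at 24 h. TPD52 rose at both times (log2 change 0.27, adjusted p = 5.49e-08 at 12 h and log2 change 0.35, adjusted p = 6.74e-11 at 24 h), with no overlap between treated and 0 h libraries.

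SEC24D, a cargo adaptor of the vesicles that leave the endoplasmic reticulum, had 114, 122 and 132 CPM at 0 h, 101, 105 and 107 CPM at 12 h and 104, 112 and 109.9 CPM at 24 h. It fell at both times (log2 change -0.23, adjusted p = 9.57e-05 at 12 h and log2 change -0.18, adjusted p = 0.00173 at 24 h), although its 0 h replicates were spread. APPBP2, which binds the tail of the amyloid precursor protein, fell by 0.21 and 0.18 on the log2 scale at 12 and 24 h (adjusted p = 8.47e-05 and 0.000566). MPHOSPH9, a centrosomal protein, fell at 12 h (log2 change -0.19, adjusted p = 0.00304), and its call at 24 h (log2 change -0.14, adjusted p = 0.0266) was lost without 0 h replicate 3 or 24 h replicate 2 or 3 (log2 change -0.13 to -0.09, adjusted p = 0.0899 to 0.235). NCAPD3, a subunit of condensin II, rose at 24 h (log2 change 0.11, adjusted p = 0.04), a call lost without 0 h replicate 1 or 2 or 24 h replicate 2 or 3 (log2 change 0.08 to 0.12, adjusted p = 0.0585 to 0.214). VPS26B on the other strand shares exon bases with NCAPD3 and had 162% of its counts. RAB4A, ARFGAP3 and HERC3 passed no comparison, with log2 changes at 12 and 24 h of -0.09 and -0.07 for the recycling GTPase RAB4A, -0.04 and -0.02 for the Golgi protein ARFGAP3, and -0.47 and -0.76 for the ubiquitin ligase HERC3. HERC3 was at 0.727 ± 0.166 CPM at 0 h, the lowest of the tested members, and with an SE of 0.33 at 24 h its log2 change of -0.76 did not pass (adjusted p = 0.105). Genes that share exons with RAB4A and ARFGAP3 had 83.1% and 162% of their counts.

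The 3 keratins form the intermediate filaments of epithelial cells. KRT8 had 505, 558 and 545 CPM at 0 h, 619.8, 640.2 and 638 CPM at 12 h and 609, 625 and 567 CPM at 24 h. It rose at 12 h (log2 change 0.24, SE 0.036, adjusted p = 7.71e-06) and 24 h (log2 change 0.16, SE 0.036, adjusted p = 0.000961), and all treated libraries were above all 0 h libraries. Its filament partner KRT18 was higher in all 12 h libraries than in all 0 h libraries, but did not pass the test (log2 change 0.17, SE 0.073, adjusted p = 0.173 at 12 h and log2 change 0.09, SE 0.073, adjusted p = 0.448 at 24 h). At 12 h KRT18 passed in 3 of 18 alternatives, with only the 6 libraries compared (adjusted p = 0.000125), with all genes that had a count (adjusted p = 0.0452) and without 24 h replicate 2 (log2 change 0.17, adjusted p = 0.046). The genes KRT8 and KRT18 share 525 exon bases on opposite strands, and the strand setting of the counting is not given in the sources used here, so reads there may be counted for either or for none. KRT19, at 1.67 ± 0.15 CPM at 0 h, passed no comparison (log2 change 0.09 and -0.01).

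**Figure D3:**
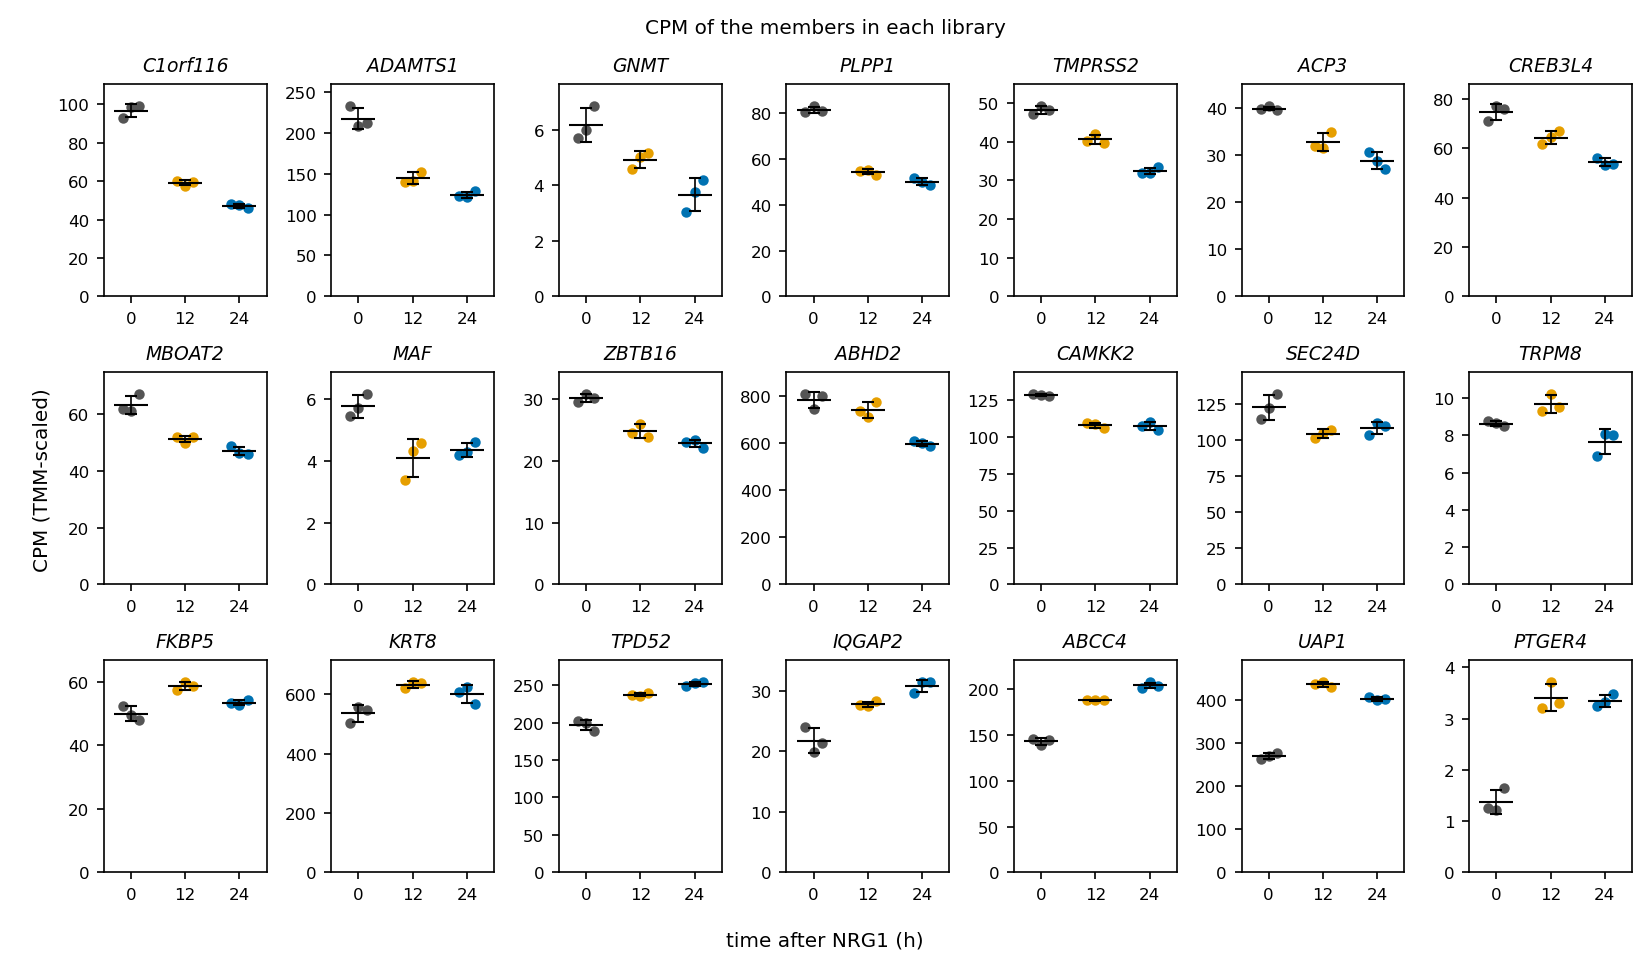
CPM on scaled library sizes (y axis, from 0) at 0, 12 and 24 h after NRG1 (x axis) for the 21 members described library by library. Points are single libraries, and the black bars are the mean and SD of 3. C1orf116, ADAMTS1 and PLPP1 step down and PTGER4, UAP1 and ABCC4 step up, with no overlap between 0 h and either later time.

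**Figure D4:**
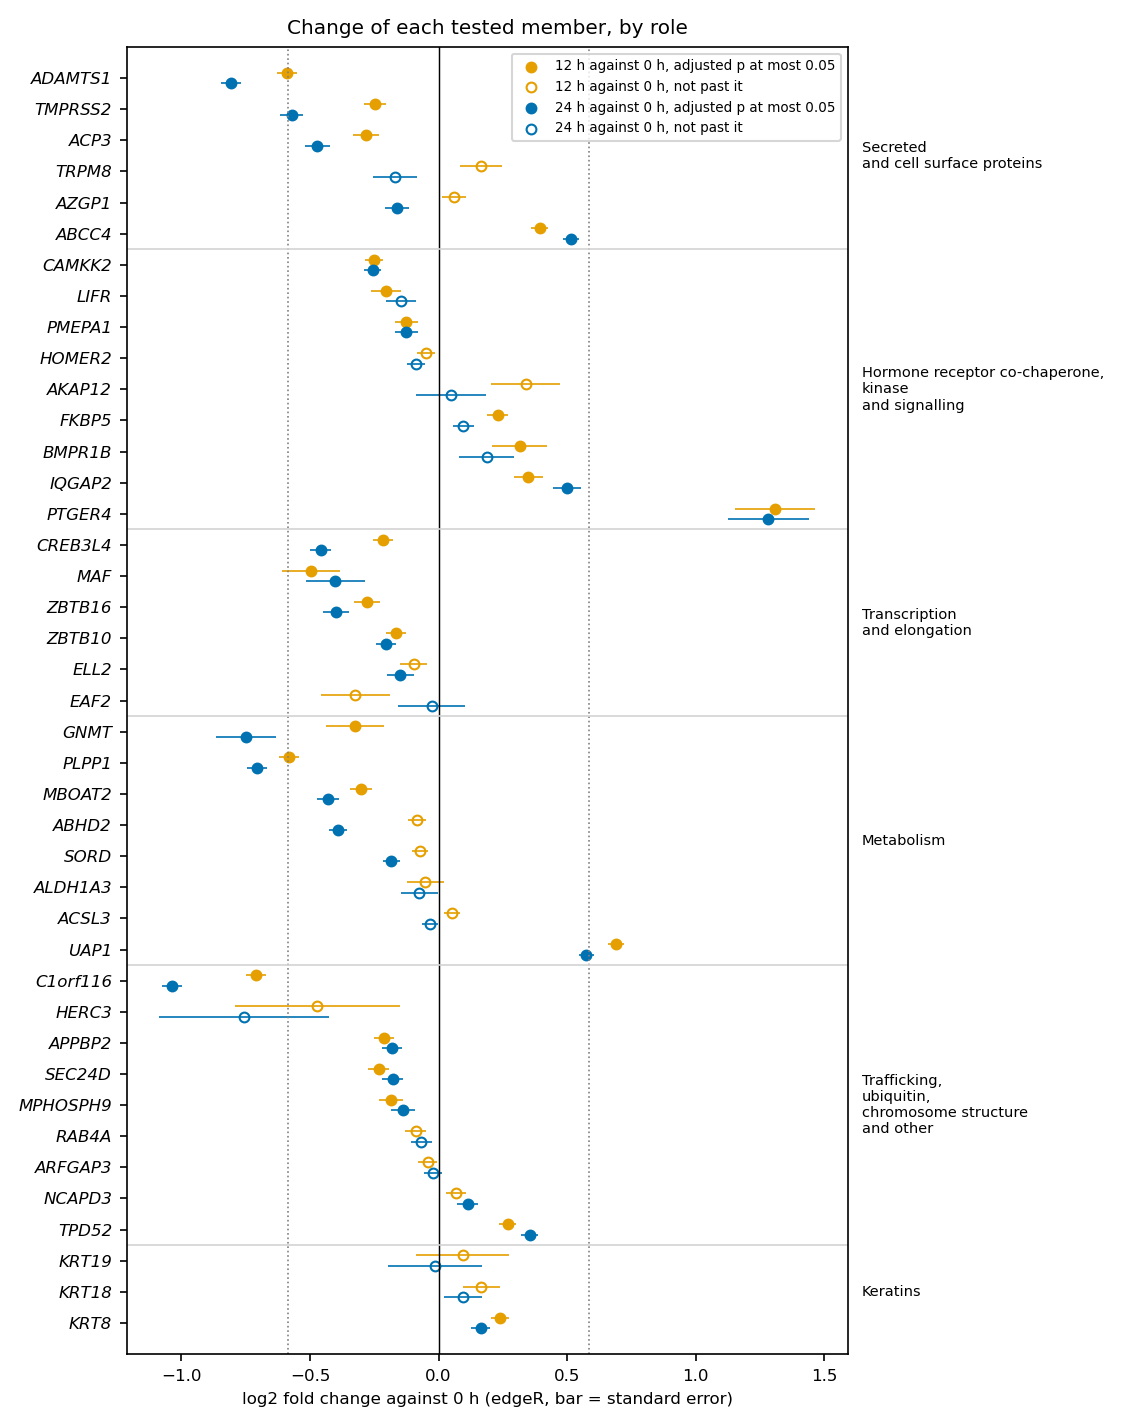
Log2 fold change against 0 h (x axis) of the 41 tested members (y axis), grouped by role, at 12 h (orange) and 24 h (blue), with bars of 1 standard error and filled points at an adjusted p of at most 0.05. Dotted lines mark a fold change of 1.5. Both times share the 0 h libraries, and PTGER4 lies furthest to the right and C1orf116 furthest to the left.

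Compared per kilobase of exon and scaled to the library (TPM, a level per length), the members at 0 h ranged from 0.376 for HERC3 to 433 for KRT18 among those tested. ABHD2 at 282 ± 16.6 TPM and KRT8 at 281 ± 8.59 TPM (SD, n = 3) came next and did not differ beyond their spread. The length was that of all annotated exons of a gene together, 6881 bases for KRT8 and 3069 for KRT18, so the order depends on it. By CPM at 0 h, KRT8 stood above KRT18, at 536 against 368. On the TPM scale PTGER4, the member with the largest rise, had 1.40 TPM at 0 h, 3.46 at 12 h and 3.46 at 24 h, and C1orf116 had 63.5, 38.7 and 31.4 TPM. The rises with a fold change of at least 1.5 thus came from a rare transcript and from an abundant one, UAP1 at 211 TPM at 0 h.

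Of 15 genes that act with the androgen response, such as pioneer factors, coactivators and chaperones, 5 rose and 4 fell at 12 h. At 24 h, 3 rose and 1 fell. Some genes of this list are not reported here, so these counts cover a part of it. Among all tested genes, 10.6% rose and 8.16% fell at 12 h, and 11.6% and 9.48% at 24 h. The pioneer factor GATA2 rose at both times (log2 change 0.29, adjusted p = 6.69e-09 and log2 change 0.24, adjusted p = 2.78e-07). FKBP4, the HSP90 co-chaperone related to FKBP5, also rose at both times (log2 change 0.21, adjusted p = 1.22e-05 and log2 change 0.17, adjusted p = 0.000213). FOXA1, a forkhead pioneer factor that opens chromatin, changed by -0.09 at 12 h (adjusted p = 0.035) and -0.08 at 24 h (adjusted p = 0.0592). The other falls at 12 h were CREBBP (log2 change -0.27, adjusted p = 9.6e-06), NCOA1 (log2 change -0.12, adjusted p = 0.0272) and NCOA2 (log2 change -0.13, adjusted p = 0.0206). Between 12 and 24 h, 1 gene of the list rose (CREBBP, log2 change 0.18, adjusted p = 0.00603) and 1 fell (HOXB13). At 24 h CREBBP did not pass against 0 h (log2 change -0.09, adjusted p = 0.146).

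A second list held 54 other genes of the androgen response, all tested, kallikreins included. At 12 h, 15 of them rose and 13 fell, and at 24 h 12 rose and 20 fell. Of all tested genes, 10.6% were higher and 8.16% lower at 12 h, and 11.6% and 9.48% at 24 h. Between 12 and 24 h, 15 fell and 1 rose, beside 3.05% and 3.03% of all tested genes. The median log2 change was 0.04 at 12 h and -0.03 at 24 h, and -0.07 from one to the other, so that at 12 h the list lay on the other side of 0 from the members. SLC45A3, prostein, fell at each step (log2 change -0.41, adjusted p = 2.37e-11 at 12 h and log2 change -0.77, adjusted p = 6.49e-19 at 24 h), and SPDEF, an epithelial ETS factor, fell by 0.12 and 0.29 on the log2 scale (adjusted p = 0.0408 and 1.83e-06). KLK3, which encodes PSA, rose at 12 h (log2 change 0.42, adjusted p = 4.34e-12) and stood below that level at 24 h (log2 change 0.25, adjusted p = 3.23e-07 against 0 h and log2 change -0.17, adjusted p = 0.00105 against 12 h). TMEM50A rose most on this list (log2 change 0.91, adjusted p = 8.52e-18 at 12 h and log2 change 1.09, adjusted p = 2.28e-20 at 24 h).

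Of 10 genes listed from general knowledge as repressed by androgen, 9 were tested, and CDH2 was at or near 0. At 12 h 6 fell and 1 rose, beside 8.16% lower and 10.6% higher among all tested genes. At 24 h 5 fell and 2 rose. OPRK1, the kappa opioid receptor, fell most (log2 change -1.21, adjusted p = 2.21e-10 at 12 h and log2 change -1.39, adjusted p = 6.89e-12 at 24 h). DDC and ACKR3 fell at both times, by 0.73 and 0.50 at 12 h and by 0.63 and 0.56 at 24 h on the log2 scale (adjusted p = 1.78e-16 and 8.2e-13, then 8.25e-15 and 2.25e-14). The glucuronidating enzymes UGT2B15 and UGT2B17 also fell at both times (log2 change -0.21, adjusted p = 2.2e-05 and log2 change -0.43, adjusted p = 3.65e-13 at 24 h), and as near-identical paralogs their reads may be split between them. IGF1R rose at both times (log2 change 0.37, adjusted p = 0.000502 and log2 change 0.45, adjusted p = 4.4e-05). BCHE fell at 12 h (log2 change -0.12, adjusted p = 0.0117) and was above 0 h at 24 h (log2 change 0.35, adjusted p = 6.29e-10). At 24 h, lower genes outnumbered higher ones in 3 lists. These were the members (20 of 41 lower, 7 higher), the 54 other androgen-response genes (20 and 12) and the 9 tested genes listed as repressed (5 and 2). The 15 reported genes that act with the androgen response had 3 higher and 1 lower. As a part of their list, they do not give the balance of the whole list. Of all tested genes, 9.48% were lower and 11.6% higher.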

How the data were processed

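TruSeq mRNA libraries, made from total RNA of LNCaP cells, were sequenced as read pairs, 9 in all. Per the study's methods, the authors trimmed adapters with cutadapt, used STAR to align reads to GRCh38.p13 and featureCounts to count reads over the genes of GENCODE release 38. The authors deposited whole-number read counts per gene, 1 column per library, not normalized or pooled. All 3 of the 0 h libraries were used. The methods left out 1 LNCaP replicate at time 0 for quality, and the study's legends give 3 replicates for NRG1. Strand and multi-mapping settings are not given in the sources used here.

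Groups and replicate numbers came from the sample titles. Genes were filtered with filterByExpr (19250 kept), scaled with TMM and tested with edgeR 4.0.16 (R 4.3.3; robust quasi-likelihood fit of all 9 libraries, no covariate), with Benjamini-Hochberg adjustment over all tested genes. A member counted as higher or lower at an adjusted p of at most 0.05. The study's own thresholds, which add a fold change of 1.5, are given beside it. Values in every library are given for up to 20 members past the F test over the 3 times with the largest changes, and for TMPRSS2 and FKBP5. The members and gene lists were chosen with earlier results of these data known, and the lists were written from general knowledge. Genes of the androgen lists and partners were named after their values were seen, and some genes of the lists are not reported here. BLAST 2.17.0 was used to look for copies of the members (at least 95% identity over 150 bases). Replicate pairs differed beyond sampling noise (chi-square per degree of freedom 3.10 to 9.03). Alternatives are given at the end. Depth covers counting error only.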

Additional observations from a re-analysis of the deposited data

Results flagged for a closer look

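The effects at 12 and 24 h, each against 0 h, differed by the direct edgeR test of 24 h against 12 h for 13 members, which is what marked them here. Of these, 12 were lower at 24 h than at 12 h. The difference, 24 h minus 12 h on the log2 scale, was -0.42 for GNMT, -0.33 for TRPM8, -0.325 for C1orf116, -0.32 for TMPRSS2 and -0.31 for ABHD2. It was -0.24 for CREB3L4, -0.22 for AZGP1, -0.22 for ADAMTS1 and -0.19 for ACP3. The smallest were -0.13 for FKBP5, -0.12 for UAP1 and -0.11 for SORD. ABCC4 alone was higher at 24 h, by 0.12. For ABCC4, ACP3, FKBP5, GNMT, SORD, TRPM8 and UAP1 the difference no longer passed the test without at least 1 of the libraries, as given with each gene above.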

How the results depend on the processing

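With a fold change of at least 1.5 required, the members counted as higher were 2 at 12 h and 1 at 24 h, with 0 from 12 h to 24 h, and those counted as lower were 2, 4 and 0. With offsets for GC content and transcript length, an alternative added after seeing the data, 2 members rose between 12 and 24 h in place of 1, and the median of the members at 12 h was -0.11. With only the 6 libraries compared, 2 members rose between 12 and 24 h. Leaving out each replicate in turn gave 0 to 1 rises and 7 to 13 falls between 12 and 24 h, a median of -0.17 to -0.12 at 24 h and a median of -0.11 to -0.054 between 12 and 24 h. No member promoter held 2 or more half-sites, beside 1.81% of all. In the cases above the cause was not tested, apart from the fold limit, which by construction only removes calls.

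Over all tested genes, deviations of same-numbered libraries from their group means correlated at -0.0367 to 0.0295 over 9 pairs. Libraries of different numbers gave -0.0597 to 0.0547. A correlation over all genes cannot show whether replicate numbers pair the samples for single genes. With the replicate number as a block, 9 members rose and 17 fell at 12 h, 7 rose and 21 fell at 24 h, 1 rose and 13 fell between them, and 29 passed the F test. Of 65 calls of single members in the 3 comparisons, 48 held in up to 18 alternatives and 17 were lost in at least 1, while 16 of 58 differences that were not called passed in at least 1. None reversed. AKAP12 at 12 h passed with DESeq2 1.42.0, with only the 6 libraries and with the block. With the block AKAP12 also fell between 12 and 24 h (log2 change -0.29, adjusted p = 0.000596), and LIFR passed at 24 h with the block, with all genes that had a count and with the GC and length offset (log2 change -0.15, adjusted p = 0.00627 to 0.0452). Size factors by the median of ratios, raw totals in place of scaling factors, other filters on low counts, thinning to the smallest total and removal of the 10 members that share exons with a neighbour of at least 10% of their counts (thinning and removal were added after seeing the data) left every count of members within 1.5 times of that reported. At the low level of HERC3 the SE at 24 h was 0.33 on the log2 scale, and how much of it is counting error was not tested.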
